A study of Homo sapiens with 6 samples.

Results

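Thymidine glycol (Tg), an oxidised form of thymidine, was mapped in the cadherin superfamily genes other than CDH4. These are the protein-coding genes named CDH or CDHR with a number, FAT1 to FAT4, DCHS1, DCHS2 and CELSR1 to CELSR3, without the protocadherins. There are 36 of them among the 20037 protein-coding genes of chromosomes 1 to 22, X and Y in the RefSeq table of GRCh38.p14, whose primary coordinates are those of hg38. DPC-Seq marks Tg by tying the DNA glycosylase NTHL1 to the damaged place in purified DNA. It was applied to HEK293T, a transformed human embryonic kidney line, as wild type and with the genotype NTHL1-/-,NEIL1-/-, a double knockout without both glycosylases that start the repair of such bases. Neither was exposed to an oxidant, per the labels. The 6 samples are 2 labelled libraries and 1 unlabelled input library of each genotype, and the labels do not say whether these came from separate cultures or whether the knockout is a single clone.

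The files hold 1 site list per genotype, with 3688 sites for wild type and 9373 for the double knockout, and no values per library. No result therefore has a spread between replicates, and no p-value is given between the genotypes. A site was assigned to a gene when its midpoint lay between the outer ends of the gene. Total reads per library are unknown; reads at the summit of a site, recovered from the deposited values, had a median of 13 in wild-type cells and 17 in the knockout. The lists mark DNA and carry no transcript by which the cell line could be checked.

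Cadherins are calcium-dependent adhesion proteins built of repeated extracellular domains. Classical cadherins join cells by binding cadherins on a neighbouring cell, and catenins tie their tails to actin. The giant FAT and DCHS proteins bind each other across cell borders, and the CELSR proteins orient cells within a sheet. NTHL1 and NEIL1 remove oxidised pyrimidines such as Tg as the first step of base excision repair.

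No site overlapped a promoter window of the 20 family genes for which one was available. The RefSeq promoter table held 32 windows, from 250 bases before to 50 after a transcription start, for 20 of the 36 genes. CDH1, CDH3, CDH5, CDH6, CDH11, CDH13, CDH15, CDH16, CDH17, CDH22, CDH24, CDHR5, CELSR1, DCHS1, FAT3 and FAT4 were not matched. Over all protein-coding genes, 0.0856% of 22199 windows overlapped the wild-type list and 0.198% the other, so 0 of 32 is near the background. Tg forms at thymine, and 3 of these windows are shown for their thymine content. The outer promoters of CDH23 and CDH26 had the lowest and the highest share of thymine among those of matched genes with a site, 8% and 33.2% of the 250 bases before the start. The outer promoter of CDHR1, with 15.2%, had the shortest distance to a site, 6.87 kb to a double-knockout site and 7.34 kb to a wild-type site. The median thymine share was 24.0% over the 32 windows of the family and 18.8% over all windows. The bases before the start, from RefSeq GRCh38.p14 and all on the plus strand, lie at chr10:71396670-71396919 for CDH23, chr20:59958173-59958422 for CDH26 and chr10:84194287-84194536 for CDHR1. Capitals mark thymine.
CDH23: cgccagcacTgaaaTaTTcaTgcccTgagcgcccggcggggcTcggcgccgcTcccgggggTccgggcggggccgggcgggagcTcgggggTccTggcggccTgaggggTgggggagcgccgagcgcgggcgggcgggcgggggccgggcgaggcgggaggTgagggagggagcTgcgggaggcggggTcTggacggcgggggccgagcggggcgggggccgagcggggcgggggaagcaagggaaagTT
CDH26: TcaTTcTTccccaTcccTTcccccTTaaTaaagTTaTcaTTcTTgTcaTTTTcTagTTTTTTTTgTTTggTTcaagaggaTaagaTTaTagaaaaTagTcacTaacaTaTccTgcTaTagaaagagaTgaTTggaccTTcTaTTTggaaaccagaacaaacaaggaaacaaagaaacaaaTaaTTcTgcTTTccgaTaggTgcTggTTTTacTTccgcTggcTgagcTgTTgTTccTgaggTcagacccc
CDHR1: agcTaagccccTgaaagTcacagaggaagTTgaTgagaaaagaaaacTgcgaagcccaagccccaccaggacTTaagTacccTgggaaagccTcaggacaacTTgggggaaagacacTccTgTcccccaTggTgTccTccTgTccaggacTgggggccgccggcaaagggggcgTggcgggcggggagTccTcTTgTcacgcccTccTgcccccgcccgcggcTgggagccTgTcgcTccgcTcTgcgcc

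Of the 36 genes, 9 held a wild-type site (25%), against 5.88% of all protein-coding genes, and 14 held a double-knockout site (38.9%), against 14.0%. Sites in both lists were found in 8 genes, where 5.09% of protein-coding genes had both. Double-knockout sites alone were found in CDH2, CDH5, CDH26, CDHR1, DCHS1 and DCHS2, and a wild-type site alone in CDH18. The other 21 genes had no site. In all there were 14 wild-type sites (95% Poisson interval 7.65 to 23.5) and 32 double-knockout sites (21.9 to 45.2) on 7.88 Mb of gene body. These intervals, like those that follow, cover counting error alone, because there is 1 list per genotype and no values per library. They treat sites, and further below reads, as independent, which neighbouring sites and amplified copies of a molecule need not be. At least 2 sites were held by 3 genes in wild type, against 1.44% of protein-coding genes, and by 7 in the double knockout, against 4.31%. At least 5 were held by no gene in wild type, against 0.155%, and by CELSR1 and DCHS1 in the double knockout, against 0.554%. CDH4, the gene left out, held 15 wild-type and 20 double-knockout sites by itself.

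**Figure D1:**
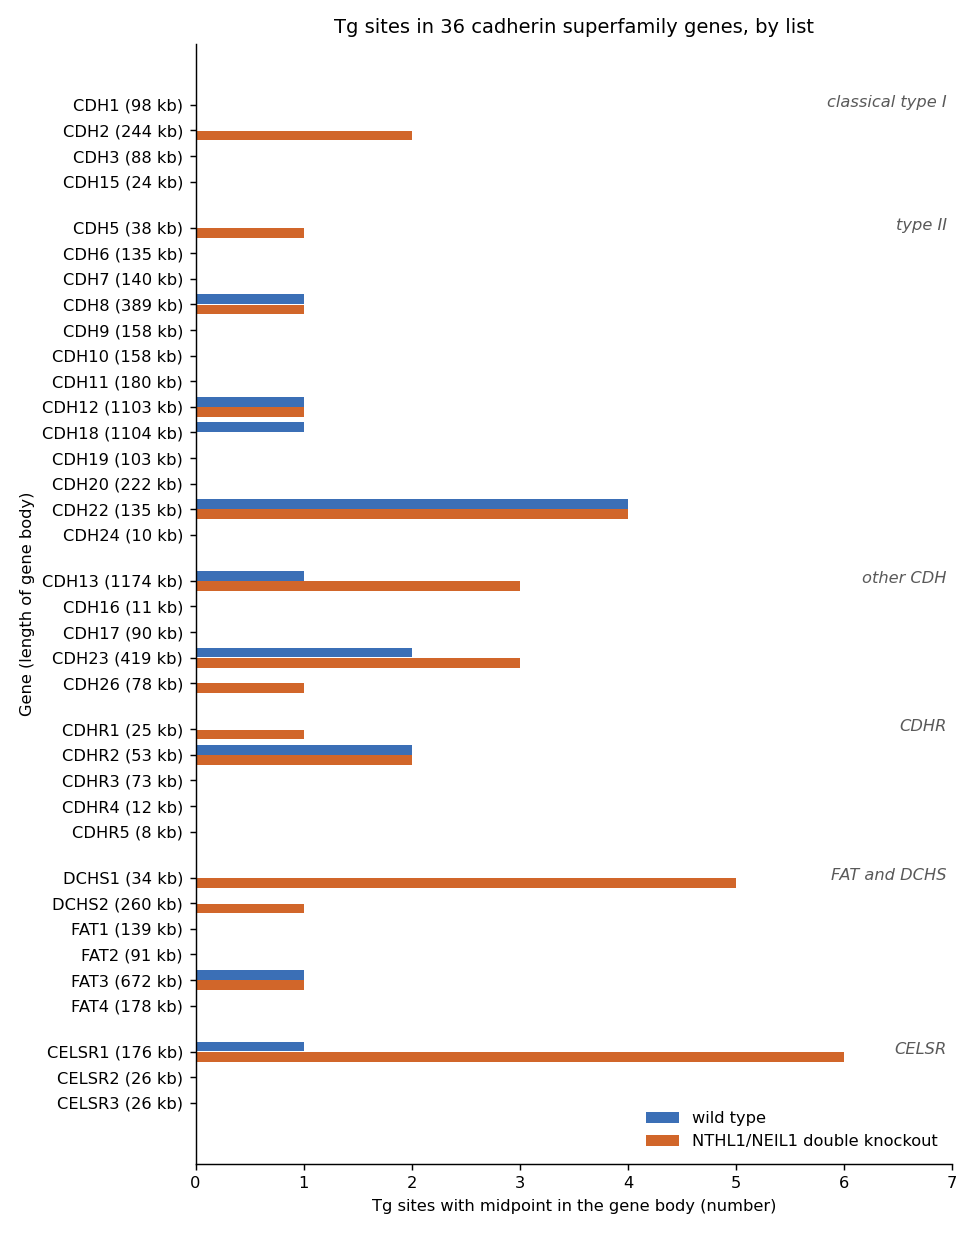
Horizontal bars give the number of Tg sites in each of the 36 genes, grouped by subfamily, with wild type in blue, the double knockout in orange and the gene length in parentheses. CELSR1 reached 6 and DCHS1 5 double-knockout sites, CDH22 had 4 in each list, and 21 genes have no bar.

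The genes of the family were long, and long genes held sites more often. The median member was 119 kb and the median protein-coding gene 24.1 kb. Among all genes of 500 kb or more, 28.6% held wild-type and 54.6% double-knockout sites; of the 4 such members (CDH12, CDH13, CDH18 and FAT3), 4 and 3 did. From 200 to 500 kb the shares of all genes were 19.7% and 46.4%, and 2 and 4 of 5 members held a site. From 50 to 200 kb they were 9.53% and 22.2%, and 3 and 4 of 17 members did. Under 50 kb they were 2.99% and 7.58%, and 0 and 3 of 10 members did, the 3 being CDH5, CDHR1 and DCHS1. With the share of its length class for each member, 4.05 members would hold a wild-type and 9.03 a double-knockout site, where 9 and 14 did. Lengths still differed within the classes. From 50 to 200 kb the median member was 135 kb and the median gene 87.2 kb. At 500 kb or more the medians were 1104 and 725 kb. Members were also longer under 50 kb, and shorter from 200 to 500 kb (260 and 281 kb). The class shares thus adjust for length only in part, and a finer adjustment was not tested. The family was chosen with earlier results of these data known, so these figures describe it and are no test.

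**Figure D2:**
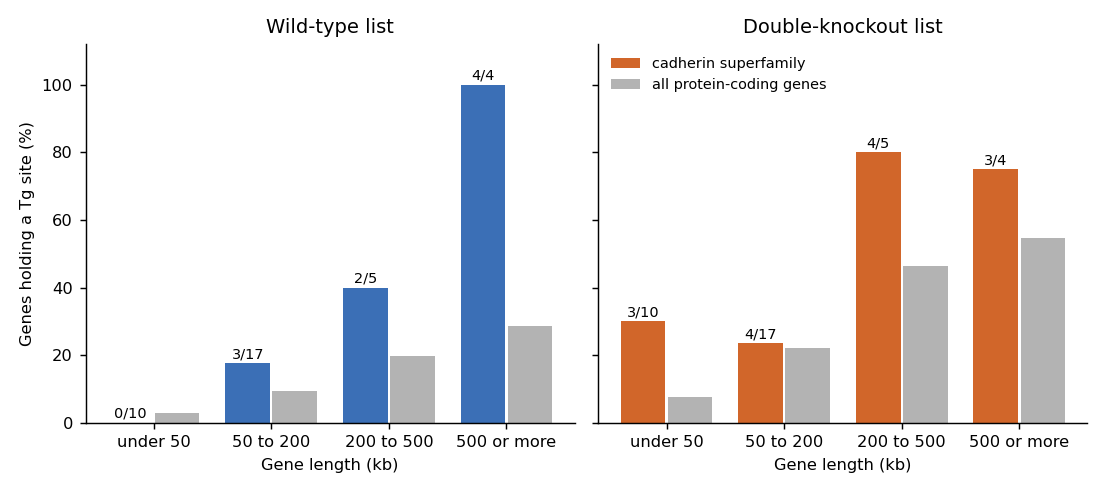
Bars give the percentage of genes that hold a Tg site in 4 classes of gene length, for the cadherin superfamily (coloured, with the number of genes above each bar) and all protein-coding genes (grey), in the wild-type list on the left and the double-knockout list on the right. The share of all genes rises with length from 2.99% to 28.6% in wild-type cells and from 7.58% to 54.6% in the knockout.

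Per megabase of gene body, the family held 1.78 wild-type sites (0.972 to 2.98), and all protein-coding genes 1.32. In the double knockout it held 4.06 (2.78 to 5.73), and all genes 3.52. Both intervals of the family hold the value over all genes. Within length classes the values lay further apart. Under 50 kb the members had 0 sites per Mb in wild type and 32.4 in the knockout, beside 2.17 and 5.65 in all genes of that length, with 5 of their 7 sites in DCHS1. From 50 to 200 kb they had 3.37 and 6.27, beside 1.34 and 3.38, and from 200 to 500 kb 1.95 and 4.56, beside 1.03 and 3.23. At 500 kb or more they had 0.987 (0.269 to 2.53) and 1.23 (0.401 to 2.88), beside 0.868 and 2.21. In these counts members were denser than all genes of their class in both lists from 50 to 500 kb. They were below them in wild type under 50 kb and in the double knockout at 500 kb or more. Both intervals at 500 kb or more hold the class value, and none was computed for the shorter classes. From 50 to 200 kb, all sites came from CDH22, CDHR2 and CELSR1, with CDH26 also in the knockout.

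The family had 2.29 times as many double-knockout as wild-type sites (1.19 to 4.64), an interval that holds the 2.67 of all protein-coding genes and the 2.54 of the whole lists. The double-knockout data were probably deeper, though total reads per library are unknown. The lowest background in a list, which moves with depth and fragment length, was 1.69 times higher there, and reads are compared below after division by this ratio. With double-knockout reads and background so divided and sites kept above the lowest wild-type p, the family held 14 wild-type and 30 double-knockout sites, and the whole lists 3688 and 8534, a ratio of 2.31. A stricter threshold as well, the median wild-type −log10 p, left the family 4 and 5 sites and the whole lists 1856 and 2137, a ratio of 1.15. That setting changes depth and threshold together. Without the division, the whole lists held 3534 and 9165 sites at q below 0.01, and 3007 and 8494 at q below 0.001. The median wild-type p itself was not run without the division, so the 2 effects were not separated at that threshold.

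Sites per Mb differed widely between subfamilies, and most sites of the densest came from 1 gene each. The 3 CELSR genes held 4.37 wild-type (0.111 to 24.3) and 26.2 double-knockout sites per Mb (9.61 to 57.0), all in CELSR1. The 5 CDHR genes held 11.6 (1.41 to 41.9) and 17.4 (3.59 to 50.9), with 4 of the 5 sites in CDHR2. The 6 FAT and DCHS genes held 0.728 (0.0184 to 4.06) and 5.10 (2.05 to 10.5). The 4 classical type I genes held no wild-type site, for which the interval reaches 8.11 per Mb, and 4.40 double-knockout sites (0.533 to 15.9). CDH13, CDH16, CDH17, CDH23 and CDH26, of neither classical type, held 1.69 (0.349 to 4.95) and 3.95 (1.59 to 8.14). The 13 type II genes held 1.81 (0.726 to 3.72) in each list, the lowest double-knockout density of the subfamilies, with an interval that holds the 3.52 of all genes.

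**Figure D3:**
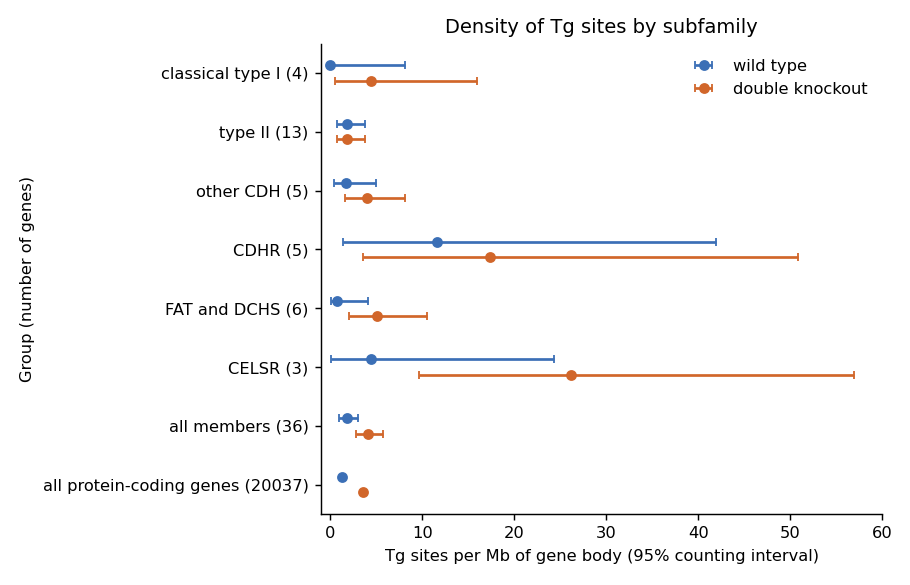
Points give Tg sites per Mb of gene body for each subfamily, for all 36 genes and for all protein-coding genes, with wild type in blue and the double knockout in orange; bars are exact 95% Poisson intervals and the number of genes is in parentheses. The intervals of both lists overlap within every subfamily, and the double-knockout intervals of CELSR and CDHR lie above the 3.52 per Mb of all genes. That of CDHR does so narrowly, from 3.59, and rests on 3 sites, of which the 2 in CDHR2 lie 3.48 kb apart.

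Among the classical type I cadherins, CDH2 (chromosome 18, 27932879 to 28177130), the gene of N-cadherin in neural and mesenchymal cells, had 2 double-knockout sites and no wild-type site. The first, 27935057 to 27935453, lay 242 kb from the start site at the far end of the gene, where the antisense RNA gene CDH2-AS1 is also annotated. It was weak, with 8 reads at the summit, a fold enrichment over background of 3.47 and rank 9166 of 9373 by q. The second, 28152514 to 28152881, lay 24.4 kb from the start with 16 reads and a fold of 4.49. Divided by 1.69, these would be 4.73 and 9.45 reads. CDH1 (98.2 kb), CDH3 (88.5 kb) and CDH15 (23.7 kb), which encode E-, P- and M-cadherin, held none. The nearest double-knockout site was 353 kb from CDH1, 261 kb from CDH3 and 26.0 kb from CDH15.

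CDH22 (chromosome 20, 46173739 to 46308498), a type II cadherin gene expressed in brain, had the most wild-type sites of the family. Its 4 wild-type sites held 12, 11, 12 and 11 reads along the gene, with folds of 4.75, 4.39, 5.45 and 5.91. Its 4 double-knockout sites held 25, 22, 17 and 14 reads, with folds of 6.86, 5.53, 4.75 and 2.79. The wild-type sites were thus alike in reads, and the double-knockout sites covered a wider range. Both lists coincided at the wild-type sites 46187309 to 46187667 and 46219994 to 46220314, and the other 2 sites of each list had no partner. On 135 kb, the rate of the chromosome would give 0.269 wild-type and 0.709 double-knockout sites. The surroundings held sites too: the 100 kb on each side contained 2 wild-type and 5 double-knockout sites, and the nearest were 3.57 and 1.35 kb from the gene. With 2.97 sites per 100 kb in each list, CDH22 ranked 37 of 102 genes with 3 or more wild-type sites and 110 of 367 in the double knockout.

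CDH8 (chromosome 16, 61647250 to 62036438), another type II gene of the nervous system, held 1 site per list at the same place, and these had the highest folds of the family. The wild-type site, 61768175 to 61768568, had 18 reads and a fold of 10.9, rank 127 of 3688 by q. The double-knockout site, 61768166 to 61768572, had 24 reads and a fold of 11.1, rank 266 of 9373. By fold they lay at the 99.0 and 99.5 percentile of their lists; the next highest folds in the family were 5.91 in wild-type cells and 7.74 in the knockout. The background there was low, at 0.744 reads in wild-type cells and 1.25 in the knockout. The lowest backgrounds of the lists were 0.739 and 1.25. The place was isolated, 268 kb from the start site of CDH8, and the nearest site outside the gene was 1567 kb away in wild-type cells and 2270 kb in the knockout.

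The type II genes on the short arm of chromosome 5 held few double-knockout sites for their length. CDH6, CDH9, CDH10, CDH12 and CDH18 cover 2.66 Mb and held 2 wild-type sites (0.242 to 7.22) and 1 double-knockout site (0.0253 to 5.57). The rate of the chromosome would give 2.40 and 6.31, so the double-knockout interval ends below that rate and the wild-type interval holds it. That rate covers the chromosome with its ends, while these genes lie 19.5 Mb or more from an end. The genes are a chosen part of a subfamily, so this is a description and no test. CDH12 (1103 kb) had a site in both lists at 22095778 to 22096135 in wild type, with 13 and 19 reads, 757 kb from the start. CDH18 (1104 kb) had a wild-type site of 7 reads at 20095161 to 20095580, 480 kb from the start, with a fold of 4.20. The nearest double-knockout site was 1520 kb from CDH18 and 4042 kb from CDH9. CDH6 (135 kb), CDH9 (158 kb) and CDH10 (158 kb) were without a site.

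Of the other type II genes, CDH5, which encodes VE-cadherin of blood vessel linings, held 1 double-knockout site of 19 reads (chromosome 16, 66380215 to 66380707, fold 5.28). CDH7 (140 kb), CDH11 (180 kb), CDH19 (103 kb), CDH20 (222 kb) and CDH24 (10.5 kb) held none. CDH20 was the longest gene of the family without a site.

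CDH13 (chromosome 16, 82626969 to 83800640) encodes T-cadherin, which is held in the membrane by a lipid anchor, and at 1174 kb is the longest of the 36 genes. It held 1 wild-type and 3 double-knockout sites, fewer than the 2.47 and 5.16 that the rate of the chromosome gives, though within the intervals (0.0253 to 5.57 and 0.619 to 8.77). The wild-type site, 83723888 to 83724389, had 12 reads and overlapped a double-knockout site of 17 reads, where the non-coding gene CEDORA is also annotated. The other double-knockout sites, 83568905 to 83569307 and 83590115 to 83590470, had 14 and 17 reads. All of these lay toward the end with the higher coordinate, at 80.3%, 82.1% and, for the overlapping pair, 93.5% of the gene.

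CDH23 (chromosome 10, 71396920 to 71815947), whose protein forms part of the tip links of hair cells in the inner ear, held 2 wild-type sites of 11 and 10 reads and 3 double-knockout sites of 15, 20 and 15 reads. The sites 71432191 to 71432544 in wild-type cells and 71432083 to 71432423 in the knockout overlapped by 233 bp, about 35.4 and 35.3 kb from the start. The unpaired sites lay 377 kb from the start in wild type and 69.6 and 271 kb from it in the double knockout. CDH26 (chromosome 20, 59958423 to 60035934), a cadherin gene of epithelia, held 1 double-knockout site of 14 reads, 9.45 kb from the start. CDH16 (10.8 kb), expressed in kidney, and CDH17 (90.1 kb), expressed in liver and intestine, held none.

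CDHR2 (chromosome 5, 176542511 to 176595974) encodes a cadherin that links microvilli of the brush border, and both of its sites were found in both lists. The wild-type site 176588272 to 176588695 held 18 reads (10.7 to 28.4) and its double-knockout partner 34 (23.5 to 47.5). The wild-type site 176591680 to 176592065 held 33 reads (22.7 to 46.3) and its partner 63 (48.4 to 80.6), the most of the family. The background there was high, at 12.2 and 19.5 reads, and the folds of 2.58 and 3.12 were among the lowest of the family. CDHR1, a photoreceptor cadherin gene on chromosome 10, held 1 double-knockout site of 18 reads, 84207175 to 84207501, 12.8 kb from the start. CDHR3 (73.2 kb), CDHR4 (12.2 kb) and CDHR5 (8.37 kb), the last encoding the partner of CDHR2 at the brush border, held none.

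DCHS1 (chromosome 11, 6621330 to 6655809) encodes the ligand of FAT4 in planar cell polarity, and of the 6 genes with double-knockout sites alone it had the most. It held 5 double-knockout sites (1.62 to 11.7) and no wild-type site (0 to 3.69) on 34.5 kb, where the rate of the chromosome would give 0.103 and 0.0337. The sites lay at 6642826 to 6643125, 6643338 to 6643968, 6646443 to 6646723, 6651129 to 6651407 and 6654427 to 6654794. In that order they held 11, 17, 19, 16 and 19 reads, with folds of 4.00, 5.98, 4.78, 5.26 and 5.05. They spanned 11.6 kb with gaps of 0.677 to 4.68 kb between midpoints, so they formed 1 cluster. The nearest site outside the gene was 152 kb away in the double knockout and 378 kb in wild type. At 14.5 sites per 100 kb, DCHS1 ranked 14 of 367 genes with 3 or more double-knockout sites. At least 5 double-knockout and no wild-type sites were found in 14 protein-coding genes (0.0699%), of which DCHS1 was the shortest, before COL5A3 at 50944 bp.

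Divided by 1.69, the double-knockout sites of DCHS1 would hold 6.50 to 11.2 reads, median 10.0, and 20.0% of wild-type sites held no more than that median. At this depth and above the lowest wild-type p the gene kept its 5 double-knockout sites against 0 in wild type. With the threshold also raised to the median wild-type p, 0 of the 5 counted. With sites less than 10 kb apart counted once, the gene had 1.

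The receptor FAT4 (178 kb) held no site, and the nearest double-knockout site was 2453 kb away. FAT1 (139 kb) and FAT2 (90.7 kb), its relatives, held none either. FAT3 (chromosome 11, 92224818 to 92896473) held 1 site in each list, far apart. The double-knockout site, 92258410 to 92259175, had 17 reads and a fold of 7.74, and lay 34 kb from the lower end of the gene. The wild-type site, 92883675 to 92883972, lay 659 kb from that end with 7 reads and rank 3680 of 3688 by q. DCHS2 held 1 double-knockout site of 16 reads (chromosome 4, 154442896 to 154443176), 48.8 kb from the start.

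CELSR1 (chromosome 22, 46361174 to 46537620), a core gene of planar polarity, held 6 double-knockout sites (2.20 to 13.1) and 1 wild-type site (0.0253 to 5.57), where the rate of the chromosome would give 1.10 and 0.511. The double-knockout sites held 18, 22, 23, 23, 16 and 14 reads along the gene, with folds of 3.29 to 5.23. The third, 46419673 to 46420378, overlapped the wild-type site 46419825 to 46420237, which held 13 reads. Divided by 1.69, the 5 others would hold 8.27 to 13.6 reads. At wild-type depth, all 6 remained above the lowest wild-type p, against 1 wild-type site. At the median wild-type p, 0 of the 6 counted and the 1 wild-type site did. They were spread over 132 kb, with gaps of 1.48 to 48.2 kb between neighbours. CELSR2 (26.2 kb) and CELSR3 (26.4 kb) held none.

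**Figure D4:**
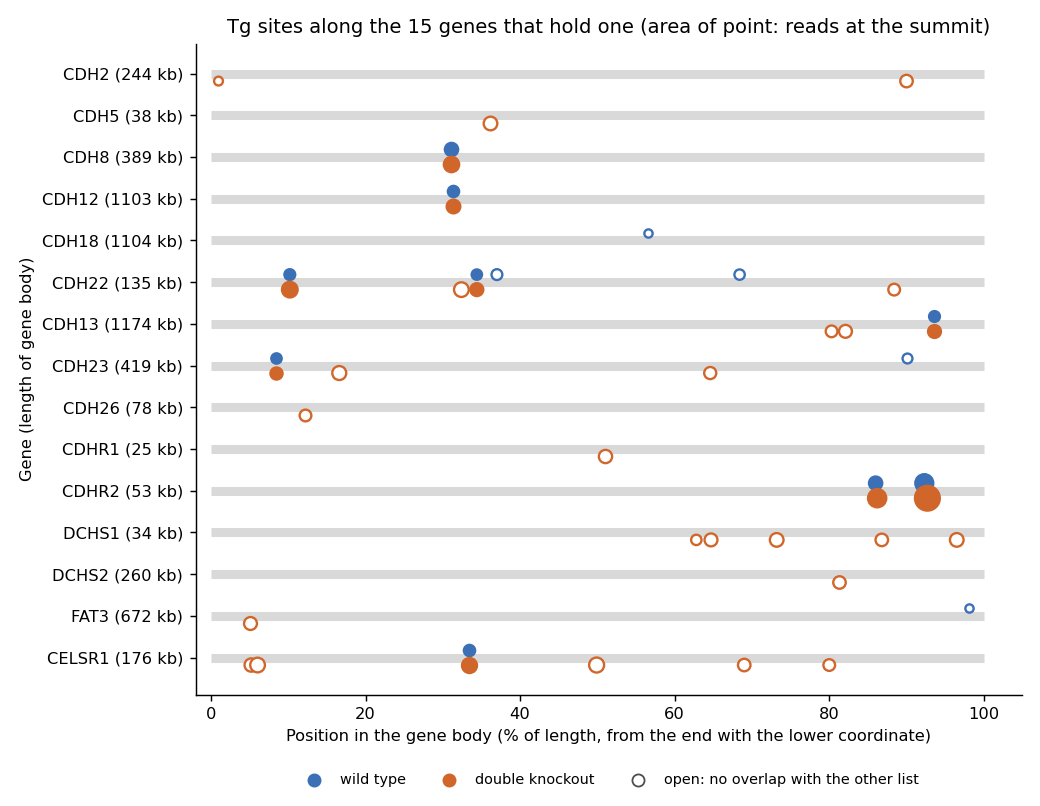
Each grey bar is 1 of the 15 genes with a site, scaled to its length and drawn from the end with the lower coordinate; points are Tg sites in wild type (blue) and the double knockout (orange), filled where the site overlaps one of the other list, with an area proportional to reads at the summit. The 5 open points of DCHS1 crowd into the upper part of the gene, while the 6 double-knockout points of CELSR1 spread over most of it.

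The 21 genes without a site covered 1.97 Mb, where the rates of their chromosomes would give 2.10 wild-type and 5.05 double-knockout sites. The upper limit of 3.69 sites for a count of 0 thus holds the first value and not the second; the genes were grouped by their count, so this is a description.

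Sites found in both lists numbered 9, in 7 genes: 2 each in CDH22 and CDHR2 and 1 each in CDH8, CDH12, CDH13, CDH23 and CELSR1. They were 64.3% of the wild-type sites of the family (Clopper-Pearson 35.1% to 87.2%), against 76.0% of wild-type sites in all protein-coding genes. Of the double-knockout sites they were 28.1% (13.7% to 46.7%), against 27.2%. At these sites, double-knockout reads divided by 1.69 over wild-type reads ranged from 0.788 in CDH8 (0.410 to 1.54) to 1.23 at the lower site of CDH22 (0.596 to 2.69). The median was 0.913, beside 0.955 over 1265 such sites in protein-coding genes. Of the 9 ratios, 5 were below 1 and 4 above, and each interval held 1. The ratios of CDHR2, whose sites had the most reads, were 1.12 (0.613 to 2.10) and 1.13 (0.729 to 1.77).

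**Figure D5:**
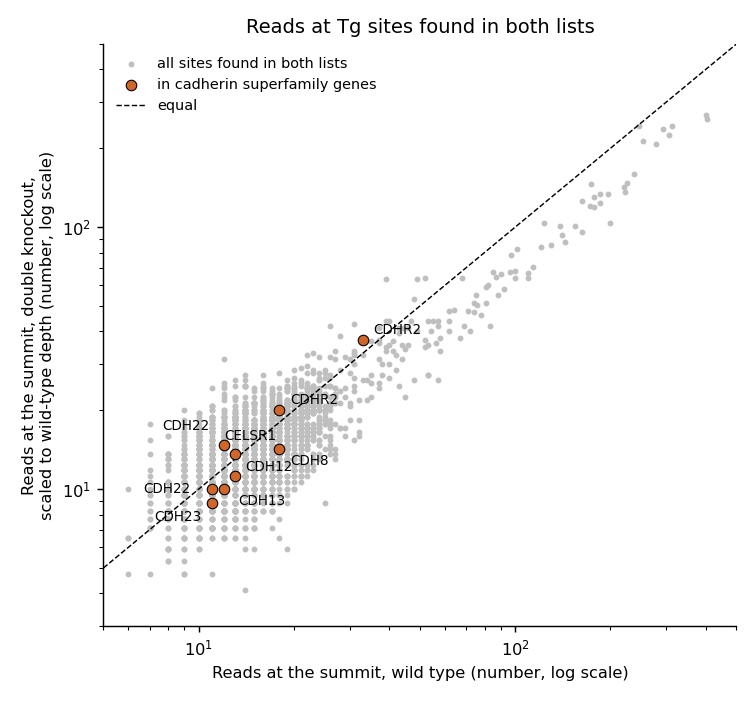
Each point is a Tg site found in both lists, with wild-type reads at the summit on the horizontal axis and double-knockout reads divided by 1.69 on the vertical axis, both on log scales; grey points are all such sites and orange points the 9 in the cadherin superfamily. The 9 lie on both sides of the dashed line of equal reads, with ratios from 0.788 to 1.23.

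In strength the wild-type sites of the family were mostly below the middle of their list, and the double-knockout sites were near it. By fold, 10 of 14 sites in wild type and 15 of 32 in the knockout lay below the 50th percentile of the list, with medians at the 31.7 and 50.9 percentile. By q, 10 and 14 did, with medians at the 30.5 and 53.5 percentile, and the median −log10 q was 3.61 and 6.2, beside 4.59 and 5.88 over the lists. The median fold was 4.56 in wild-type cells and 4.97 in the knockout, beside 5.17 and 4.94 over all sites in protein-coding genes. The median reads were 12 and 17, beside 13 and 17. The median width was 364 and 400 bp, beside 370 and 403 bp.

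Density was higher in the members within 5 Mb of a chromosome end, the end being taken as the outermost annotated gene or site. These 6 genes (CDH15, CDH26, CDHR2, CDHR5, CELSR1 and FAT1) held 6.27 wild-type (1.29 to 18.3) and 18.8 double-knockout sites per Mb (8.60 to 35.7). The 30 others held 1.49 (0.742 to 2.66) and 3.11 (1.97 to 4.66). The double-knockout intervals did not overlap. Over all protein-coding genes the densities near and away from an end were 4.13 and 1.05 in wild-type cells and 7.39 and 3.16 in the knockout. All sites of the 6 genes came from CELSR1, CDH26 and CDHR2, which lay 4.27, 4.29 and 4.88 Mb from an end. CDHR5, CDH15 and FAT1 lay closer, at 0.604, 1.03 and 3.47 Mb, and held none. DCHS1 lay at 6.61 Mb and counted among the 30 others.

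Genes that act with the cadherins were counted in the same way, beside the 5.88% of protein-coding genes with wild-type and the 14.0% with double-knockout sites. Of 15 catenins and other adhesion partners, 3 (20.0%) held a wild-type and 5 (33.3%) a double-knockout site, where the shares of their length classes would give 1.84 and 3.96 genes. CTNND2, the gene of neural delta-catenin, held 5 and 3 of their 7 and 8 sites, and PKP4, which encodes a relative of p120-catenin, 0 and 2. CTNNB1, the gene of beta-catenin, held none. Of 7 desmosomal cadherin genes, 1 had a double-knockout site and 0 a wild-type site, where length would give 0.822 and 0.340. Of 17 planar polarity and Fat pathway genes, 1 (5.88%) and 4 (23.5%) held a site, where length would give 1.37 and 3.23. The first share is that of all genes. Among them was VANGL2, a membrane protein of the same core as CELSR1, with 1 and 2 sites. Of 12 partners of CDH23 and the CDHR proteins, 1 (8.33%) and 3 (25%) did, where length would give 1.11 and 2.5, and PCDH15, which joins CDH23 in the tip link, held none. Apart from the adhesion partners, each count was within 1 gene of what length gives.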

How the data were processed

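The authors deposited a headerless list of Tg sites for each genotype and no library values. The submitters' processing notes name Bowtie2, MACS2, bedtools and deepTools and build hg38; versions, roles and the way libraries were combined were not given in the sources used here. The deposited score, fold enrichment (a ratio of summit reads to background), −log10 p-value and −log10 q-value of each site are the authors' own and were used within their list. The largest q was 0.0450 for wild type and 0.0489 for the double knockout. Reads and background were recovered from fold and −log10 p, and a whole number of reads matched within 0.001 at 100% of sites; the recovery and counting were tested on simulated data. Sites with an overlap of at least 1 bp were called shared. Strand was known only for genes in the promoter table, and exons, introns and the sequence of sites were not analysed here. Expected counts multiply gene length by the sites per base of the chromosome. The members and lists were chosen with earlier results of these data known. Every member was accounted for; of the partner lists, genes with at least 2 sites in one list were named, and CTNNB1, PCDH15 and COL5A3 were added after their values were seen. Alternatives were other q thresholds, gene bounds, overlap rules, divisors, counting neighbouring sites once, and leaving out CDH22 or the members near a chromosome end. Python 3.11.15, pandas 2.3.3, numpy 2.4.6, scipy 1.17.1 and matplotlib 3.10.9 were used.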

Additional observations from a re-analysis of the deposited data

How the results depend on the processing

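No paired analysis was possible because each genotype has 1 list and the replicate numbers of the libraries carry no values; leaving out a replicate was impossible for the same reason. Over 238 recomputed values, 202 stayed within 1.5 times a count or within the interval or spread of another value, and 36 moved. With genes extended by 5 kb, planar polarity partners had 2 wild-type and desmosomal cadherins 2 double-knockout sites. With q below 0.01, and also below 0.001, FAT and DCHS genes had 0 wild-type sites and type I genes 1 double-knockout site. With sites less than 10 kb apart counted once, wild-type sites were 1 in CDHR genes and 4 in adhesion partners, and double-knockout sites 3 in FAT and DCHS genes. CDHR2 then had 1 site in each list. At wild-type depth and the median wild-type p, an alternative chosen after seeing the data, 3 members held 4 wild-type sites (0.508 per Mb) and 4 members 5 double-knockout sites (0.635 per Mb). Wild-type sites were then 3 in type II, 1 in CELSR, 0 in other CDH, CDHR, and FAT and DCHS genes, and 2 in adhesion partners. Double-knockout sites were 0 in type I, other CDH and CELSR genes. They were 2 each in type II and CDHR genes and 1 in FAT and DCHS genes. Adhesion, planar polarity and hair-cell and brush-border partners had 1 each. That threshold keeps 1856 of 3688 wild-type sites by construction. With depth scaled alone, above the lowest wild-type p and also chosen after seeing the data, all 7 recomputed values kept within those bounds: the family had 30 double-knockout sites against 14, DCHS1 5 against 0 and CELSR1 6 against 1. A double-knockout site of the family without a partner would hold 4.73 to 13.6 reads at wild-type depth, where the lowest wild-type site has 6.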

Other observations

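The family hosts 5 microRNA genes in CDH13, CDH23, CELSR3 and FAT2. None lay close to a site: the nearest was MIR7152 in CDH23, 16.2 kb from a wild-type site, followed by MIR4793 in CELSR3, 31.8 kb from a double-knockout site.

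The 8 members on chromosome 16 (CDH1, CDH3, CDH5, CDH8, CDH11, CDH13, CDH15 and CDH16) held 2 sites in wild type (0.242 to 7.22) and 5 in the double knockout (1.62 to 11.7); at the rate of that chromosome they would hold 4.22 and 8.81. The 4 members on chromosome 18 (CDH2, CDH7, CDH19 and CDH20) held no wild-type site and 2 double-knockout sites, both in CDH2, where the rate would give 0.495 and 1.40.

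Distances of sites from the ends of their genes depend on gene length, for which no base was computed. The median distance from the nearer gene end was 44.5 kb in wild type (4.10 to 480 kb) and 29.2 kb in the double knockout (1.20 to 345 kb), and 1 of 14 and 4 of 32 sites lay within 5 kb of an end. Where the strand was known, 2 of 7 sites in wild type and 5 of 12 in the double knockout were nearer the transcription start than the other end.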
